A study of Mus musculus with 6 samples.

Results

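The genes described are 8 transcription factors that maintain the identity of the intestinal epithelium, Cdx1, Cdx2, Hnf4a, Hnf4g, Klf5, Elf3, Gata4 and Gata6. Each is a member by its gene symbol alone, and each was read by 1 probe set, out of 19933 genes with a probe set that names 1 gene. They were measured on Affymetrix Gene ST arrays in epithelial cells isolated from the jejunum of 6 mice, with 1 array per mouse. The 3 control mice had the genotype R26-M2rtTA, a doxycycline-dependent transactivator at the Rosa26 locus, and the 3 transgenic mice had the genotype TRE-MSI2::R26-M2rtTA, the same transactivator with a tetracycline-responsive transgene for the RNA-binding protein MSI2. All 6 mice, controls included, drank doxycycline for 24 hours, and the comparison asks which transcripts differ after MSI2 induction. The Rosa26 locus is active in most cell types, so its driver does not limit the transgene to the epithelium, and the labels give neither age nor sex.

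These factors act as layers of 1 regulatory network. The homeobox proteins CDX1 and CDX2 set intestinal rather than gastric fate, and the nuclear receptors HNF4A and HNF4G bind the enhancers of enterocyte genes for lipid handling and the brush border. GATA4 and GATA6 are zinc finger factors that share functions along the small intestine, with GATA4 holding jejunal against ileal character. KLF5 is a Krüppel-like factor of proliferating crypt cells, and ELF3 is an epithelial ETS factor of maturing cells.

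The level read by the Msi2 probe set did not separate the arrays by their labels. Msi2 had log2 values of 11.30, 9.53 and 9.32 in the controls and of 11.23, 10.58 and 11.44 in the transgenic arrays, and its difference did not pass (limma, adjusted p = 0.257), while the labels say that MSI2 was induced. Its paralog Msi1 had 7.20, 7.97 and 7.62 in the controls and 13.44, 12.82 and 13.53 in the transgenic arrays, a log2 fold change of 5.66 ± 0.26 (SE; adjusted p = 8.18e-04). Whether the Msi1 or the Msi2 probe set reads the transgene was not tested, so neither value can be taken as a measure of its induction. Directions are therefore given between arrays labelled transgenic and arrays labelled control, and a fold change is the first minus the second on the log2 scale, where 1 unit is 2-fold. Array medians lay between 6.42 and 6.46, and precision is limited by there being 3 arrays per group. Labelled control replicate 1 correlated with the other controls by 0.981 and 0.982, against 0.996 between those 2. The epithelial markers were all measured, with log2 summed levels of 15.74 to 15.85 in the labelled controls and 15.85 to 15.98 in the labelled transgenic arrays.

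Of the 8 identity factors, 3 fell and none rose (limma, adjusted p below 0.05), and at an unadjusted p below 0.05 the counts were 3 and 1, the latter Klf5. Of all genes 18.6% passed, 9.65% lower and 8.97% higher. The 3 were Hnf4g, Cdx2 and Cdx1, lower by factors of 1.995, 1.77 and 1.44. Hnf4a, Elf3 and Gata6 had lower means, Klf5 and Gata4 had higher means, and none of these 5 passed. The median log2 fold change over the 8 was -0.38, beside 0.02 over all genes. Groups did not overlap for 5 of the 8, Cdx1, Cdx2, Hnf4g, Klf5 and Elf3, against 37.0% of all genes. All 48 values exceeded 5.06, the top of the range read by sex-specific probe sets in mice of the other sex, which started at 4.07, although background differs between probe sets.

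**Figure D1:**
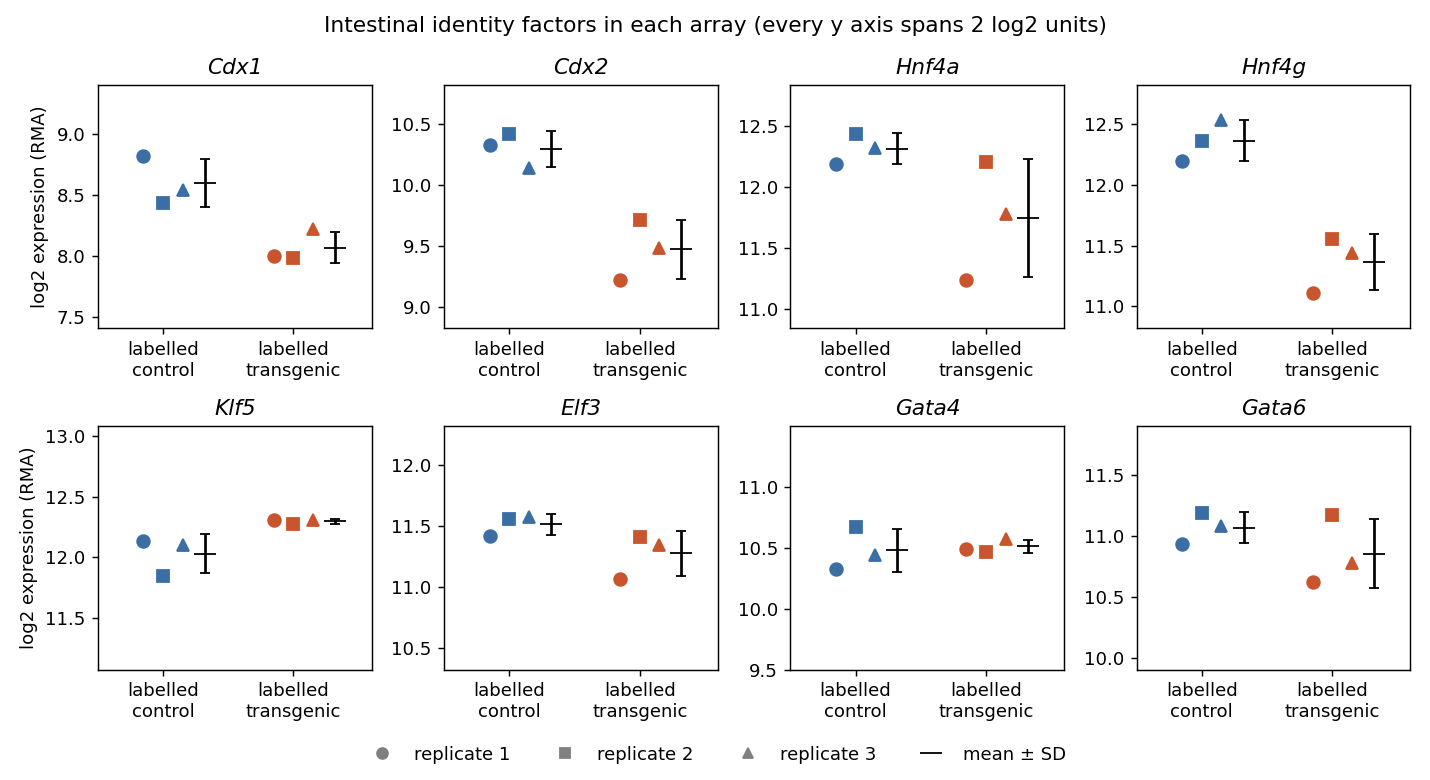
Log2 expression of each identity factor in every array, with labelled control arrays in blue and labelled transgenic arrays in orange, marker shapes for replicate numbers, and black bars for the mean ± SD of 3 arrays. Each y axis covers the same span, and the groups are separated for Cdx1, Cdx2, Hnf4g, Klf5 and, by a gap too small to see, Elf3.

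Cdx2, the homeobox gene whose loss turns intestinal epithelium towards a gastric type, fell. Its values were 10.33, 10.42 and 10.14 in the labelled controls and 9.22, 9.71 and 9.48 in the labelled transgenic arrays. Every labelled transgenic array lay below every labelled control, and labelled transgenic replicate 1 was the lowest. The means were 10.30 ± 0.15 and 9.47 ± 0.24 (SD, n = 3 each), and the log2 fold change was -0.82 ± 0.15 (SE; adjusted p = 0.017 in limma). Cdx1, the paralog with its highest activity in crypts, also fell, with values of 8.82, 8.44 and 8.54 against 8.001, 7.99 and 8.22. Labelled control replicate 1 was the highest array, and the gap between the groups was the distance from 8.44 to 8.22. The log2 fold change of Cdx1 was -0.53 ± 0.13 (SE; adjusted p = 0.0374 in limma). The call of Cdx1 was kept only without labelled control replicate 1 among the 6 fits that leave out 1 array. It was lost without labelled control replicates 2 or 3 (adjusted p = 0.0711 and 0.106) and without labelled transgenic replicates 1, 2 or 3 (0.12, 0.08 and 0.0762). The call of Cdx2 was lost without labelled control replicates 2 or 3 (adjusted p = 0.0718 and 0.0512) and without labelled transgenic replicate 3 (0.0712). The count over all genes was 3710, between 952 and 1370 without labelled control replicate 2 or 3 or labelled transgenic replicate 1 or 3, and 4080 without labelled transgenic replicate 2.

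Both paralogs were lower, and no test of an unequal fall passed. The within-array difference of Cdx2 and Cdx1 had a log2 fold change of -0.29, with an exact two-sided permutation p of 0.3 (0.4 after adjustment over the 3 paralog pairs), and the design cannot give a p below 0.1. With arrays paired by replicate number the within-pair changes of this difference were -0.29, -0.26 and -0.33, of 1 sign and similar size, with an exact two-sided sign-flip p of 0.25, the smallest that 3 pairs allow. Their relative Cdx4 reached at most 4.13, inside that range of absent transcripts.

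Promoter windows from RefSeq (GRCm38.p6), from 250 bases before to 50 bases after a start site, were found for 3 of the 8 genes, Cdx2, Hnf4a and Elf3. Those of Cdx2, the most reduced factor with a window, and of Hnf4a, which has windows at 2 start sites, are shown on the strand of the gene. Capitals mark matches on either strand to TTTAT (CDX), CAAAG (HNF4), GATAA (GATA) or CACCC (KLF), short core motifs searched as a description.
Cdx2, chr5:147307200-147307499, minus strand: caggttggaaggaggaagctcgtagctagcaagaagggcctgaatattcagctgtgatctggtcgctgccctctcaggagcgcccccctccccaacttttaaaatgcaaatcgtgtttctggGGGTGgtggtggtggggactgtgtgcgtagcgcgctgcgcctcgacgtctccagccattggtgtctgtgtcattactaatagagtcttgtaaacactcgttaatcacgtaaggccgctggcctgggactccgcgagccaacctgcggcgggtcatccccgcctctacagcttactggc
Hnf4a, upstream start, chr2:163506607-163506906, plus strand: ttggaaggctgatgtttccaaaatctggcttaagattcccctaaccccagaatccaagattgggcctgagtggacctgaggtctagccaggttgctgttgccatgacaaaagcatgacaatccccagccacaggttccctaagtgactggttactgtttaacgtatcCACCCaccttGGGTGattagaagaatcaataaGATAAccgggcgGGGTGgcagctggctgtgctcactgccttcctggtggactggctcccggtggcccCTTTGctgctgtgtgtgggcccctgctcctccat
Hnf4a, downstream start, chr2:163546905-163547204, plus strand: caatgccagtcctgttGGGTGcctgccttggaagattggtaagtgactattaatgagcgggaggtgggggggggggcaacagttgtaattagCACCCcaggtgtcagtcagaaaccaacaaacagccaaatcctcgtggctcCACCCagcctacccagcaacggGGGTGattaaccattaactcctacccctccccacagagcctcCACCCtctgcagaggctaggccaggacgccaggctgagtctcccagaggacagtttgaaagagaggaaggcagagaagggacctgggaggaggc
The Cdx2 window held 1 match, to CACCC. The upstream Hnf4a window held 3 matches to CACCC, 1 to GATAA and 1 to CAAAG, and the downstream window 5 to CACCC. None of these windows held TTTAT, which 40.0% of the 32851 RefSeq promoter windows of this length contain. CAAAG was in 53.9% of them, GATAA in 25.4% and CACCC in 57.5%. GATAA followed by A also holds TTTAT on the other strand, so these motifs can overlap. No match says only that these letters are not in the window.

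Hnf4g, the HNF4 paralog with the narrower range of tissues, had the largest difference of the 8 factors. Its values were 12.19, 12.36 and 12.53 in the labelled controls and 11.11, 11.55 and 11.44 in the labelled transgenic arrays. The lowest labelled control lay above the highest labelled transgenic array, and labelled transgenic replicate 1 was again the lowest. The means were 12.36 ± 0.17 and 11.37 ± 0.23 (SD, n = 3 each), with a log2 fold change of -0.996 ± 0.15 (SE; adjusted p = 0.0105 in limma). This call was lost without labelled control replicate 2 (adjusted p = 0.0511) and kept in the other 5 fits that leave out 1 array, at log2 fold changes from -1.09 to -0.87.

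Hnf4a, the paralog with broad roles in liver, kidney and gut, had values of 12.19, 12.44 and 12.32 in the labelled controls and 11.24, 12.21 and 11.78 in the labelled transgenic arrays. The groups overlapped, because labelled transgenic replicate 2 lay above labelled control replicate 1. The 3 labelled transgenic arrays spread widely, with an SD of 0.48 against 0.13 in the controls. The log2 fold change of Hnf4a was -0.57 ± 0.24 (SE), with a 95% interval from -1.16 to 0.01, and it did not pass (adjusted p = 0.159 in limma). Without labelled transgenic replicate 2 it did pass, at -0.80 (adjusted p = 0.0377), and so it did with array weights, at -0.69 (adjusted p = 0.0348). Without labelled transgenic replicate 1 it was at -0.32 (adjusted p = 0.291). The within-array difference of Hnf4g and Hnf4a was lower in all 3 labelled transgenic arrays, at -0.13, -0.65 and -0.35, than in the labelled controls, at 0.005, -0.08 and 0.21. The difference of their log2 fold changes was -0.42, and the exact two-sided permutation test gave 0.1, the smallest p the design allows (0.3 adjusted over 3 pairs). With arrays paired by number the changes were -0.14, -0.58 and -0.56 (exact sign-flip p of 0.25).

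Hnf4aos, an antisense transcript of the Hnf4a locus, was named after its value was seen. It fell by 1.34 on the log2 scale (SE 0.19, adjusted p = 0.0088 in limma), from 7.43, 6.81 and 7.44 to 5.76, 5.96 and 5.93. The sources used here do not say how far its probe set separates the strands, so its value is uncertain beside that of Hnf4a. Its call was kept with each array left out in turn.

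Klf5, which sustains crypt proliferation, had the highest fold change of the 8 but did not pass. Its values were 12.14, 11.85 and 12.11 in the labelled controls and 12.31, 12.27 and 12.31 in the labelled transgenic arrays. All labelled transgenic arrays lay above all labelled controls, and the SD of the labelled transgenic arrays was 0.02. The log2 fold change was 0.27 ± 0.10 (SE), with a 95% interval from 0.03 to 0.51 before adjustment over genes (adjusted p = 0.114 in limma). With array weights it passed, at 0.32 (adjusted p = 0.0458).

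Elf3, which is needed for the maturation of enterocytes and goblet cells, had values of 11.41, 11.55 and 11.57 against 11.07, 11.41 and 11.34. The groups just failed to overlap, since labelled control replicate 1 and labelled transgenic replicate 2 were equal to 2 decimals. The log2 fold change was -0.24 ± 0.11 (SE), with a 95% interval from -0.52 to 0.04 (adjusted p = 0.204 in limma). It ran from -0.14 without labelled transgenic replicate 1 to -0.31 without labelled transgenic replicate 2.

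The GATA factors did not pass either. Gata4, the factor that marks duodenum and jejunum, had values of 10.33, 10.67 and 10.44 in the labelled controls and 10.49, 10.47 and 10.57 in the labelled transgenic arrays. The labelled transgenic values lay inside the range of the controls. Its log2 fold change of 0.03 ± 0.11 (SE; adjusted p = 0.875 in limma) had a 95% interval from -0.23 to 0.29, and its sign turned without labelled control replicate 1 (-0.04) and with array weights (-0.02). Gata6, which is expressed along the whole intestine, had values of 10.93, 11.18 and 11.08 against 10.62, 11.17 and 10.77. Labelled transgenic replicate 2 lay among the controls, and the other two lay below them. Its log2 fold change of -0.21 ± 0.16 (SE; adjusted p = 0.424 in limma) had a 95% interval from -0.597 to 0.17. It ran from -0.09 without labelled transgenic replicate 1 to -0.37 without labelled transgenic replicate 2. The within-array difference of Gata6 and Gata4 had a log2 fold change of -0.24, with an exact two-sided permutation p of 0.4, also after adjustment over the 3 pairs. Paired by number, its changes were -0.48, 0.19 and -0.45 (exact sign-flip p of 0.5).

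**Figure D2:**
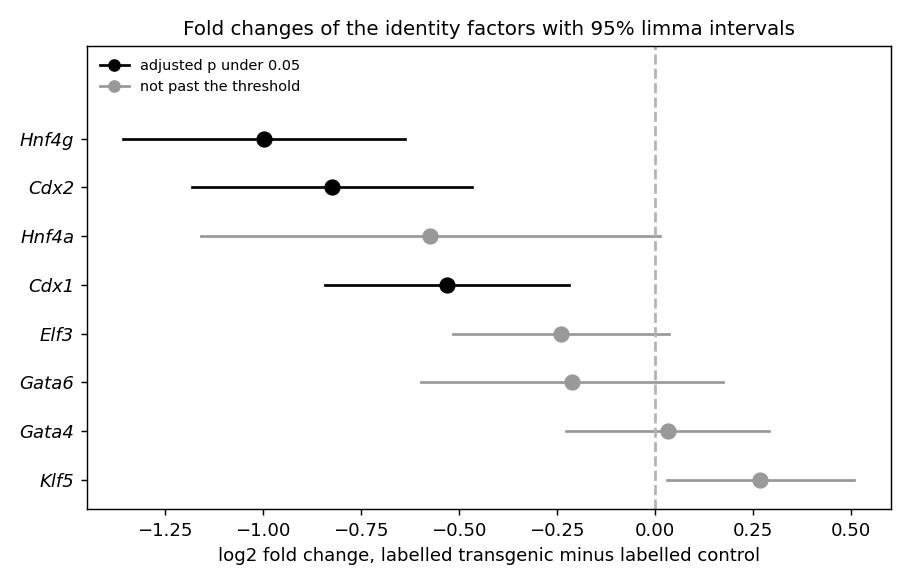
Log2 fold change of each identity factor, arrays labelled transgenic minus arrays labelled control, as points with 95% limma intervals before adjustment over genes. Black marks the 3 factors past an adjusted p of 0.05, from Hnf4g at -0.996 to Cdx1 at -0.53, and grey marks the 5 that did not pass.

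The labelled transgenic arrays differed among themselves in the same factors. Relative to the labelled control mean, replicate 1 was at -1.25 in Hnf4g, -1.07 in Cdx2 and -1.08 in Hnf4a. Replicate 2 was at -0.81 in Hnf4g, -0.59 in Cdx2 and -0.11 in Hnf4a, and replicate 3 at -0.92, -0.81 and -0.53. Hnf4a therefore varied more between these arrays than Hnf4g did. Cdx1 had another order, with -0.598 in replicate 1, -0.61 in replicate 2 and -0.38 in replicate 3. Klf5 had nearly equal values of 0.28, 0.24 and 0.28.

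By the root mean square distance between log2 profiles over the 6 arrays, each centred on its own mean, the nearest genes to Cdx1 were Bcl11b, Zmym3 and Fsd1l, at 0.05 each. Those nearest to Cdx2 were Cd48, Ugdh and Plcd1, at 0.06, 0.08 and 0.08, and those nearest to Hnf4g were Klhl22, Ndufaf3 and Tmem184a, at 0.04, 0.06 and 0.07. Among the 8 factors, Hnf4g was the nearest to Cdx2, at a distance of 0.19, and ranked 350th among all genes. The arrays form 2 groups, so these distances mostly reflect the group difference, and no correlation is given.

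The next measured genes on each side of the 8 loci, in RefSeq gene order, moved in both directions. Of 15 such neighbours 3 rose and 2 fell, beside 8.97% and 9.65% of all genes, and Hnf4aos was 1 of those that fell. Neil2 beside Gata4 was at 1.19 and Ttpal beside Hnf4a at 0.79 (adjusted p = 0.0092 and 0.0113 in limma). Rnpep beside Elf3 was at -0.87 (adjusted p = 0.0081 in limma). Pdx1, the foregut and pancreatic homeobox gene beside Cdx2, rose by 0.75 ± 0.17 (SE; adjusted p = 0.032 in limma), with values of 5.84, 5.59 and 5.55 against 6.16, 6.33 and 6.75. Its call was lost without labelled control replicates 2 or 3 or labelled transgenic replicates 2 or 3 (adjusted p up to 0.118).

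Genes that depend on the HNF4 factors in enterocytes mostly had lower means, and few passed. Across all 19933 genes 9.65% fell, and 9122 had lower means, with a median of 0.02. Of 15 genes with reported HNF4 dependence 3 fell and none rose (4 and 0 at an unadjusted p below 0.05 in limma), and 13 had lower means, with a median of -0.83. The 3 were the brush border scaffold gene Ush1c at -2.17 ± 0.44 (SE; adjusted p = 0.0243 in limma) and the brush border myosins Myo7b at -1.44 ± 0.298 (adjusted p = 0.0247) and Myo1a at -1.47 ± 0.37 (adjusted p = 0.0424). The sugar transporter gene Slc2a2 was lowest of the 15 at -2.63, and the apolipoprotein gene Apoa4 highest at 0.39 (adjusted p = 0.144 and 0.658 in limma). Among other lipid genes, Fabp1 was at -1.14, Apoc3 at -0.78 and Fabp2 at -0.60 (adjusted p = 0.188, 0.645 and 0.217 in limma). The apolipoprotein gene Apob was at 0.08 and the lipid transfer gene Mttp at -0.19 (adjusted p = 0.915 and 0.657 in limma). With replicate number blocked in the fit 10 of the 15 fell, while 5139 of all 19933 genes passed in either direction. These 10 included genes given above as not passing, whose adjusted p-values are from the limma fit without the block. None fell without labelled control replicates 2 or 3 or labelled transgenic replicates 1 or 3 (3 each at an unadjusted p below 0.05 in limma), and 1 fell when sex was a term. The count without labelled control replicate 1 was 4 (10 at an unadjusted p below 0.05 in limma). In that fit 5542 of all genes passed in either direction. CAAAG was in the promoter windows of 10 of the 13 genes that had one, beside 53.9% of all windows. CACCC was also in 10 of these 13, beside 57.5%, GATAA in 5, beside 25.4%, and TTTAT in 4, beside 40.0%.

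Of 12 genes with reported CDX2 dependence 1 fell, the villin gene Vil1 at -0.797 ± 0.21 (SE; adjusted p = 0.0453 in limma), and 11 had lower means, with a median of -0.63. Those counts stood beside 9.65% of all genes that fell and 9122 of 19933 with lower means. The sucrase-isomaltase gene Sis was at -2.80 ± 0.87 (adjusted p = 0.0744 in limma, not called). Under the replicate block Sis passed (adjusted p = 0.0347 in limma), and 5 of the 12 fell, while 5139 of all genes passed in either direction. No CDX2-dependent gene rose in limma, also at an unadjusted p below 0.05, where 4 fell. The intestinal cadherin gene Cdh17 was at 0.12 (adjusted p = 0.451). None fell without labelled control replicates 2 or 3, labelled transgenic replicates 1 or 3, or with sex as a term (1 to 4 fell there at an unadjusted p below 0.05 in limma). Without labelled control replicate 1 the count was 2, and without labelled transgenic replicate 2 it was 4. TTTAT was in the windows of 6 of the 9 genes that had one, beside 40.0% of all windows. In the same 9, CAAAG was in 7, beside 53.9%, CACCC in 5, beside 57.5%, and GATAA in 3, beside 25.4%.

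Labelled control replicate 1 lay below the other controls in these dependent genes. Relative to the mean of labelled control replicates 2 and 3, its median was -0.92 over the HNF4-dependent genes and -0.65 over the CDX2-dependent genes, lower than the -0.77 and -0.31 of labelled transgenic replicate 2. In the called factors labelled control replicate 1 was at 0.34 for Cdx1, 0.05 for Cdx2 and -0.25 for Hnf4g, and in Hnf4a at -0.19. Its cycling cell markers had a median of 0.74, against -0.10 to 0.35 in the labelled transgenic arrays. The part of this array's makeup in the results on dependent genes was not tested beyond the fits without it.

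**Figure D3:**
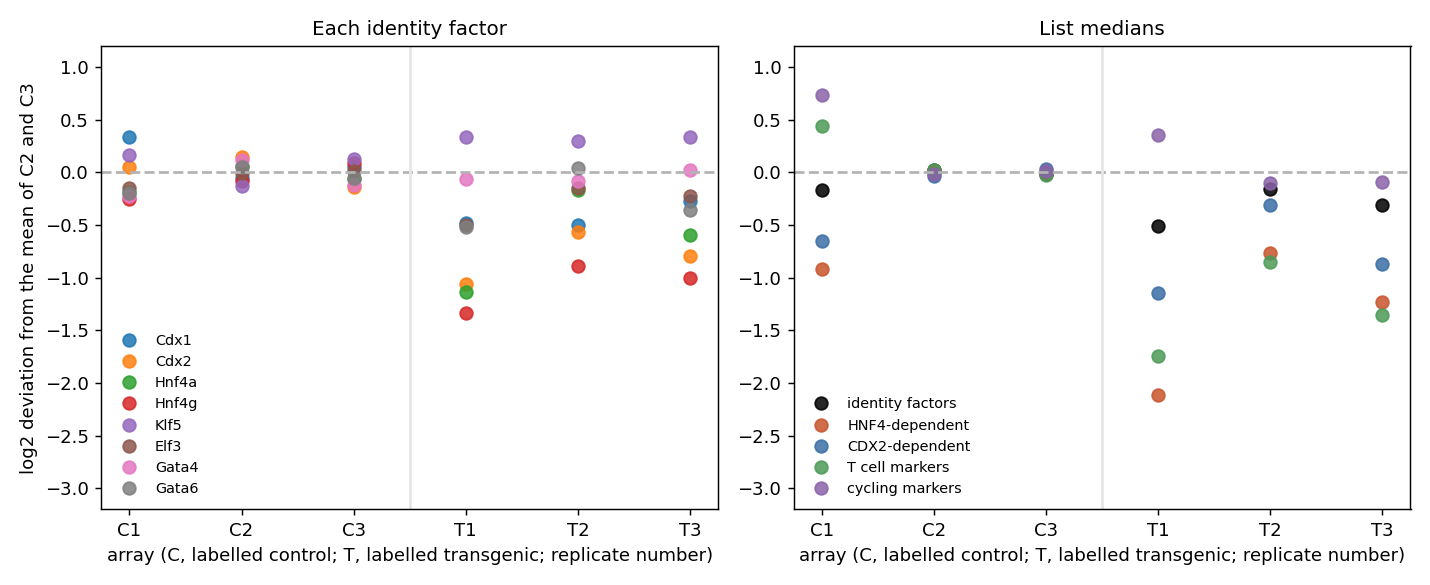
Log2 deviation of each array from the mean of labelled control replicates 2 and 3 (C2, C3), for each identity factor on the left and as the median over gene lists on the right. In C1 the HNF4-dependent list lies at -0.92 while Hnf4g lies at -0.25 and Cdx2 at 0.05.

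The cofactors of these proteins that passed were lower. Of 11 cofactor genes of GATA and HNF4 factors 4 fell and none rose (5 and 1 at an unadjusted p below 0.05 in limma), with a median of -0.29. Over all genes 9.65% fell and 8.97% rose. Ppargc1a, a coactivator of HNF4A, fell from 10.36, 10.69 and 10.87 to 9.03, 9.15 and 9.17, by 1.52 ± 0.14 (SE; adjusted p = 0.0033 in limma). Zfpm1, the GATA partner FOG1, fell from 8.93, 9.84 and 9.56 to 7.34, 8.15 and 7.43, by 1.80 ± 0.30 (adjusted p = 0.015). The histone deacetylase gene Hdac3 was at -0.95 ± 0.19 (adjusted p = 0.0236) and the nuclear receptor coactivator gene Ncoa1 at -0.84 ± 0.22 (adjusted p = 0.0446). Of these, Ppargc1a was the one that passed in every fit with 1 array left out, and 1 cofactor fell without labelled control replicates 2 or 3 or labelled transgenic replicates 1 or 3. Without labelled control replicate 1, 6 fell. With sex as a term 3 fell, and Ncoa1 lost its call (adjusted p = 0.0844 in limma).

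Of 7 measured genes with reported KLF5 or ELF3 dependence, 1 rose and 1 fell, beside 8.97% and 9.65% of all genes. Tgfbr2, the receptor gene that ELF3 activates in enterocytes, rose by 1.97 ± 0.30 (SE; adjusted p = 0.011 in limma), and Ccnd1, a cyclin gene that KLF5 activates, was at -0.53 ± 0.12 (adjusted p = 0.0334). With the replicate block 2 rose and 2 fell, and the counts without labelled control replicate 1 were also 2 and 2. Tgfbr2 lost its call without labelled control replicate 2 or labelled transgenic replicate 3 (adjusted p up to 0.0536), and Ccnd1 without any array but labelled control replicate 1 (up to 0.118). Ccnd1 also lost its call with sex as a term (adjusted p = 0.0769 in limma) and under an intensity trend. Elf3 itself was at -0.24 and Klf5 at 0.27.

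Ileal genes, which GATA4 is reported to hold down in the jejunum, moved in both directions beside the Gata4 value of 0.03. Among the 7 genes 1 rose and 2 fell, beside 8.97% and 9.65% of all genes. Slc10a2, the ileal bile acid uptake transporter, rose from 6.61, 6.32 and 6.50 to 9.70, 10.49 and 8.13, by 2.96 ± 0.57 (SE; adjusted p = 0.0202 in limma). The vitamin B12 receptor genes Cubn, at -4.09 ± 0.91 (adjusted p = 0.03; 8.87, 11.71 and 12.53 against 6.75, 7.32 and 6.77), and Amn, at -1.47 ± 0.39 (adjusted p = 0.0489), fell, and the other 4 of the 7 did not pass. The rise was lost without labelled control replicates 2 or 3 or labelled transgenic replicate 1 (adjusted p up to 0.0809), and without labelled transgenic replicate 3 there were 3 rises. Both falls were lost without labelled control replicates 2 or 3 or labelled transgenic replicates 1 or 3 (adjusted p up to 0.158 in limma). They were also lost with sex as a term, and that of Amn also without labelled transgenic replicate 2. When quantile normalization was run again, 1 of the 7 fell. With the replicate block 3 fell, since Slc51a, a bile acid exporter gene at -2.39 ± 0.69 (adjusted p = 0.0617), then passed (adjusted p = 0.0226).

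**Figure D4:**
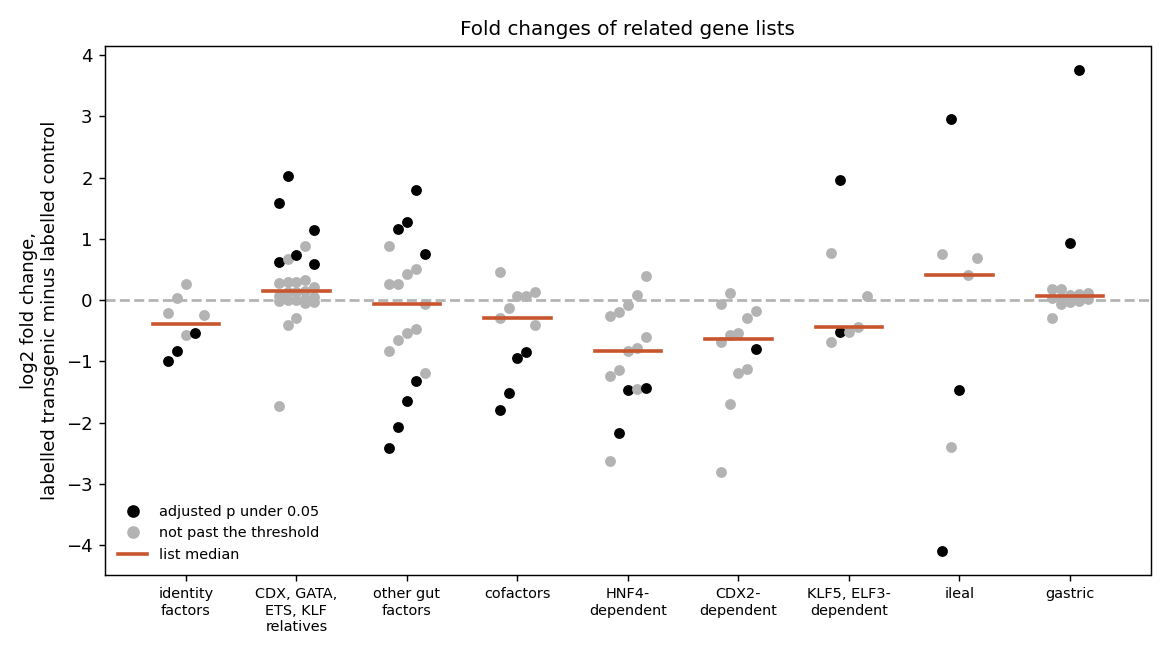
Log2 fold change of each gene in the lists named on the x axis, arrays labelled transgenic minus arrays labelled control, with black points past an adjusted p of 0.05, grey points not past it and an orange line at the list median. The medians of the HNF4-dependent and CDX2-dependent lists lie at -0.83 and -0.63, and that of the identity factors at -0.38.

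Lymphocyte transcripts also differed between the groups. All 8 markers of T cells and intraepithelial lymphocytes had lower means and 7 fell, where 9.65% of all genes fell and 8.97% rose. Their log2 summed levels were 11.80 to 12.39 in the labelled controls and 9.62 to 10.80 in the labelled transgenic arrays. None of the 8 lay within the range of absent transcripts in all arrays. In other lists, 2 of 5 measured B cell and 2 of 6 endothelial markers did, as did 1 fibroblast and 1 macrophage marker. For such markers a lack of change cannot be read. Of 8 fibroblast markers 1 fell, of 6 endothelial markers 1 rose, of 6 macrophage markers 1 rose, and none of 6 smooth muscle markers and 5 measured B cell markers passed in limma, also at an unadjusted p below 0.05. Of the 8 epithelial markers 2 rose, Krt18 at 1.47 and Cdh1 at 0.32, and Vil1 fell. None of 10 cycling markers passed in limma (2 were lower at an unadjusted p below 0.05). In bulk samples, fewer cells of a type and less RNA per cell cannot be told apart, and the part of these cells in the results on the factors was not tested.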

How the data were processed

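The values are log2 expression per probe set, deposited by the authors as 1 column per array with nothing pooled. The submitters' processing notes name Partek and RMA, with no version or setting; RMA sets all arrays to 1 distribution and combines the probes of a set, so a shift in total RNA is lost. No genome build is named in those notes. Of 28350 probe sets, 21780 named 1 gene, 1618 several and 4952 none here; 21689 of the first matched a RefSeq gene identifier (GRCm38.p6, used for names, gene order and promoter windows). Each gene was read by its brightest 1-gene probe set.

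The fit used limma (3.58.1, under R 4.3.3), with no term but group, and two-sided p-values were adjusted by Benjamini-Hochberg across the 19933 genes. The fit was also run on simulated independent normal values. These lack the correlations between the real arrays, so that run gives no error rate for these data. The members and gene lists were chosen with earlier results of these data known, so the counts and medians of all lists only describe them. The text names all members, up to 4 genes past the threshold per list, or the 2 with the largest fold change where fewer than 2 pass, and the 3 nearest profiles per called member; a few others are named for contrast after their values were seen. Some genes of the lists are not reported here, and counts are over the measured members. Labels call the arrays biological replicates, without saying what a replicate number shares. Deviations from the group means correlated by 0.52, 0.41 and 0.13 for arrays numbered 1, 2 and 3. All were above 0.1, so the replicate number was treated as a pairing. Counts with it as a block stand beside the list counts they change, and calls with it are given for only some genes. Unmatched arrays correlated by -0.44 to 0.32, labelled control replicate 3 with labelled transgenic replicate 2 (0.32) above its own number (0.13), so the pairing of number 3 is weak. These correlations are not independent, as deviations cancel within a group. Sex, read from Xist and Y-linked genes, was female for 2 labelled control mice and 1 labelled transgenic mouse.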

Additional observations from a re-analysis of the deposited data

How the results depend on the processing

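The count of identity factors past the threshold stayed at 3 with the mean of all probe sets, a filter on genes with a mean under 6, renewed quantile normalization, median centring, every probe set tested and the replicate block. It was 5 with array weights, 2 with an intensity trend and with sex as a block, and 0 at an adjusted p under 0.01 in limma (4 passed at an unadjusted p below 0.05). It ran from 0 (without labelled control replicate 2, where 3 passed unadjusted) to 3 when 1 array was left out. The count over all genes was 3710, 5139 with the replicate block, 7072 with array weights, 2159 with sex as a block, 801 at an adjusted p under 0.01, and 952 to 5542 with 1 array left out. Cdx1 lost its call under an intensity trend (adjusted p = 0.056) and under the sex block (0.0596), where Hnf4g and Cdx2 kept theirs (0.0349 and 0.0429). The sign turned in the value of Gata4 alone, to -0.0161 with array weights, and that value ran from -0.0427 (without labelled control replicate 1) to 0.129 with 1 array left out. The cause of these changes was not tested; a fit with 1 array fewer has less power. The replicate block changed the call of no identity factor. Pairing the arrays by number in the paralog differences was added after seeing the data and left them at -0.29, -0.42 and -0.24. The paralog differences kept their sign under every setting run, from -0.45 to -0.15 for Cdx2 and Cdx1, -0.55 to -0.29 for Hnf4g and Hnf4a, and -0.42 to -0.14 for Gata6 and Gata4.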

Other observations

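Among relatives of the identity factors, those that passed were higher. The 27 relatives were other genes of the CDX, GATA and Krüppel-like families and some of the ETS family. Of these, 6 rose and none fell in limma at an adjusted p below 0.05. At an unadjusted p below 0.05 in limma the counts were 10 and 3, and the median log2 fold change was 0.15. Over all genes 8.97% rose and 9.65% fell. Gata3, a factor of lymphocytes and other lineages, rose from 5.61, 5.80 and 5.65 to 7.27, 7.37 and 7.19, by 1.59 ± 0.09 (SE; adjusted p = 0.0011), and Klf6, an early response gene, from 10.38, 10.34 and 10.78 to 12.61, 12.11 and 12.84, by 2.02 ± 0.22 (adjusted p = 0.0048). Both passed in every fit with 1 array left out. The rise of Gata3 stood beside falling T cell markers such as Cd3e, at -1.35. Klf3 at 0.59 ± 0.11 and Klf9 at 1.14 ± 0.25 rose too (adjusted p = 0.0169 and 0.0287), but lost their call without labelled control replicates 2 or 3 or labelled transgenic replicates 1 or 3, where 2 relatives rose (adjusted p up to 0.0698 and 0.105). Gata5, the third GATA gene of the gut, was at -1.73 ± 0.47 (adjusted p = 0.0515, not called). It passed under the replicate block (adjusted p = 0.0084), where 7 relatives rose and 2 fell, and without labelled control replicate 1 or labelled transgenic replicate 2.

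Of 19 measured other transcription factors of the gut epithelium 4 rose and 4 fell, beside 8.97% and 9.65% of all genes. Vdr, the vitamin D receptor gene, was at -2.42 ± 0.27 (SE; adjusted p = 0.0052 in limma), the zinc finger gene Osr2 at -2.08 ± 0.13 (adjusted p = 0.0011) and the retinoid receptor gene Rxra, the partner of Vdr, at -1.65 ± 0.31 (adjusted p = 0.0189). Foxa1, a forkhead factor of secretory and foregut cells, rose by 1.27 ± 0.18 (adjusted p = 0.0097). Vdr, Osr2 and Foxa1 passed in every fit with 1 array left out, and Rxra did not (adjusted p up to 0.0791, without labelled control replicate 3). Without labelled control replicate 3 or labelled transgenic replicate 3, 1 of these factors rose.

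Of 14 stomach and foregut genes 2 rose and none fell in limma, with the same counts at an unadjusted p below 0.05. Over all genes 8.97% rose and 9.65% fell. Anxa10, an annexin of gastric epithelium, rose from 4.86, 5.197 and 5.48 to 9.27, 9.22 and 8.31, by 3.76 ± 0.296 (SE; adjusted p = 0.0022 in limma), and passed with each array left out. Cldn18, the gastric claudin gene, rose by 0.93 ± 0.24 (adjusted p = 0.0465) and lost its call without labelled control replicates 2 or 3 or labelled transgenic replicates 1 or 3. With sex as a term the call of Cldn18 was also lost (adjusted p = 0.0749 in limma), and after renewed quantile normalization 1 of the 14 rose. The other 12, among them Sox2 at 0.02 and Muc5ac at 0.18, did not pass, and the list's median was 0.06. Of the 14, 2 lay within the range of absent transcripts in all arrays, Sox2 with at most 4.69 among them. Muc5ac reached at most 5.46, little above that range. For genes at this level a lack of change cannot be read.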
